A study of Homo sapiens with 12 samples.

Results

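The 9 genes described here, BRCA1, BRCA2, PALB2, BARD1, RAD51C, RAD51D, ATM, CHEK2 and BRIP1, act in the repair of DNA double-strand breaks by homologous recombination. They were taken by symbol from the 60660 genes in the tables, and all 9 were found and passed the filter on low counts in each comparison. RNA was measured by sequencing in prostate cancer cells transfected with NC-mimic, the negative control, or with piR-4447944 mimic, an RNA oligo with the mature sequence of a PIWI-interacting RNA. The 4 groups were LNCaP cells with NC-mimic, LNCaP cells with piR-4447944 mimic, 22Rv1 cells with NC-mimic and 22Rv1 cells with piR-4447944 mimic, with 3 libraries in each. All 12 libraries, controls included, came from cells kept in androgen-deprived medium with 10% charcoal-stripped serum, so levels in medium with androgen were not analysed here. LNCaP and 22Rv1 are established prostate cancer cell lines, each group is 1 line, and no label ties a replicate to a culture of its own, so the p-values measure the spread between these libraries, which may be technical.

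In homologous recombination, a broken end is trimmed to a single strand, which then pairs with the intact sister chromatid and uses it as template. The kinase ATM senses the break and activates CHEK2. The ubiquitin ligase made of BRCA1 and BARD1 acts early, PALB2 links BRCA1 to BRCA2, BRCA2 and the paralogs RAD51C and RAD51D act later, in strand pairing, and the helicase BRIP1 binds BRCA1. Inherited defects in several of these genes are found in prostate cancer, and such tumours can respond to PARP inhibitors.

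The promoters of 4 members are shown because BARD1, BRCA1 and BRIP1 had the largest differences between the cell lines and RAD51C one of the smallest. They run from 250 bases before to 50 bases after a transcript start, come from RefSeq (GRCh38.p14) and are written 5′ to 3′ on the strand of the gene. Capitals mark GCGGGAA, the core of an E2F site, in BRCA1, BARD1 and BRIP1, and TGACGTCA, the cyclic AMP response element, in RAD51C.
BRCA1 (chr17:43125315-43125614): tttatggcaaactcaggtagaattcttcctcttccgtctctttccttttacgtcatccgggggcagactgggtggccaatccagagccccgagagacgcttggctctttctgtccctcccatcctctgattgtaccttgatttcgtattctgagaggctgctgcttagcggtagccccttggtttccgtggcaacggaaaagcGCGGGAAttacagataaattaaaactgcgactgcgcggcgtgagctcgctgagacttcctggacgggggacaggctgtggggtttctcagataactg
BARD1 (chr2:214809634-214809933): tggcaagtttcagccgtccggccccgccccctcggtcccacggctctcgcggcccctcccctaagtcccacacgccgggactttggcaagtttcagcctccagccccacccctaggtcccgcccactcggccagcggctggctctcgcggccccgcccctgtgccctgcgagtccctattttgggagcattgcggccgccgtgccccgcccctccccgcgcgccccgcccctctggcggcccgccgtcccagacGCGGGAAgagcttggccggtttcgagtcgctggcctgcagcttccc
BRIP1 (chr17:61863479-61863778): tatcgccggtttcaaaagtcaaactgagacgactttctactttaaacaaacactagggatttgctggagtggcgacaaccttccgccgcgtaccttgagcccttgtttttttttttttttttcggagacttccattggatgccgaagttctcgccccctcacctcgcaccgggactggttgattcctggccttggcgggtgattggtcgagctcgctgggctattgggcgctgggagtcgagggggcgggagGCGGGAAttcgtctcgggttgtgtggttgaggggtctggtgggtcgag
RAD51C (chr17:58692323-58692622): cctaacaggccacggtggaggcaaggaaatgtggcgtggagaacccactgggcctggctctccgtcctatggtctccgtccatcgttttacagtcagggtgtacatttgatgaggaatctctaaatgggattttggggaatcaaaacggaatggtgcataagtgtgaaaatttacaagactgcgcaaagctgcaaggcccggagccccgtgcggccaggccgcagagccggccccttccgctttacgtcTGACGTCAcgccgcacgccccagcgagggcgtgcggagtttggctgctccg

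All 9 members matched a RefSeq promoter, and 4 of them had more than 1 window. On either strand, GCGGGAA was found in the printed windows of BRCA1, BARD1 and BRIP1 and in both windows of RAD51D, and it was found in 6.54% of 34943 promoters of the same length. It was not found in the windows of BRCA2, PALB2, RAD51C, ATM or CHEK2, nor in the second window of BRCA1. TGACGTCA was found in both windows of RAD51C only among the members, and in 1.84% of all promoters. GGGCGG, the GC box, was most frequent in BARD1, with 5 matches, and was present in 44.9% of all promoters. These matches are a description of the letters and do not show binding of a factor.

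Each library held from 12161091 to 22179601 expected counts. The 9 luminal markers of the prostate were present in every group, and among them KLK3, an androgen-regulated gene, was at 1828 TPM (transcript abundance scaled by length, with the same sum in each library) or more in LNCaP and at 53.4 TPM or less in 22Rv1. Of the markers of other cells, the basal, leukocyte and endothelial genes stayed at 1.16 TPM or less. Of the 4 fibroblast genes, COL1A1 reached 42.9 TPM in LNCaP and 21.7 TPM in 22Rv1. The others went the other way, with COL1A2 at 0 in LNCaP and up to 1.55 TPM in 22Rv1. DCN reached 0.2 TPM in LNCaP and 2.89 TPM in 22Rv1, and LUM 1.4 and 4.52 TPM. Of the libraries, 22Rv1 with piR-4447944 mimic replicate 3 stood apart from its group, with a chi-square per gene of 115.3 and 117.8 against replicates 1 and 2, which gave 7.55 between themselves. In 22Rv1 with NC-mimic, replicate 3 stood apart too, at 48.7 and 41.3 against 8.81. Values of the members without these libraries are given beside some of the results that move with them.

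Per length, RAD51C and BARD1 were the members with the highest RNA level in LNCaP cells, and RAD51C alone in 22Rv1 cells. In LNCaP with NC-mimic, RAD51C was at 102.7 ± 13.2 TPM (SD, n = 3) and BARD1 at 100.1 ± 8.46 TPM, with overlapping ranges. CHEK2, ATM and BRCA1 followed at 27.7 ± 2.86, 24.4 ± 4.22 and 18.8 ± 2.47 TPM, each overlapping its neighbour. RAD51D at 12.7 ± 0.688 TPM and PALB2 at 8.93 ± 1.37 TPM were apart from their neighbours in range, and BRCA2 at 5.41 ± 1.72 TPM overlapped BRIP1 at 3.91 ± 0.683 TPM, the lowest member. The order at the top thus held RAD51C beside BARD1, the partner of BRCA1, and BRCA2 and BRIP1 stood at the bottom.

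The order differed in 22Rv1 with NC-mimic, with BARD1 lower and BRCA1 and BRIP1 higher in it. RAD51C was again highest at 84.7 ± 9.46 TPM, and BRCA1 was next at 38.8 ± 14.6 TPM, a range that overlapped CHEK2 at 32.7 ± 5.66 TPM. RAD51D at 19.6 ± 2.09 TPM and ATM at 19.1 ± 1.87 TPM overlapped. BRIP1 at 8.03 ± 2.60 TPM, BARD1 at 6.49 ± 1.35 TPM, PALB2 at 6.47 ± 1.39 TPM and BRCA2 at 4.73 ± 1.41 TPM formed the lower end, where each gene overlapped the next. BARD1 was thus second in LNCaP and seventh in 22Rv1.

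The level of RAD51C per length rests on a short transcript estimate. The mean transcript length that RSEM, the quantifier, assigned to RAD51C was between 773 and 1045 bases, and that of BRCA2 between 5998 and 11954 bases. In CPM, the count scaled to library size, which carries no length, RAD51C was at 41.5 ± 6.36 in LNCaP with NC-mimic and BRCA2 at 38.4 ± 8.87.

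The first comparison asked how the members differed between the lines without the piRNA mimic. In 22Rv1 cells with NC-mimic, BARD1 was 12.2-fold lower than in LNCaP cells, while BRCA1 and BRIP1 were 2.41-fold and 2.19-fold higher, RAD51D 1.79-fold and CHEK2 1.302-fold higher. By an adjusted p under 0.05, 4 of 9 members were higher and 1 was lower, beside 30.9% higher and 27.5% lower among the 17497 genes tested (edgeR quasi-likelihood test, Benjamini-Hochberg adjustment over all genes). The median log2 fold change was -0.09 over the members and 0.01 over all genes tested. Without 22Rv1 with NC-mimic replicate 3, again 4 were higher and 1 lower, beside 33.7% and 32.5% of 18304 genes. A difference between the lines was thus common among all genes, and the count of members does not set them apart. In these bulk libraries, fewer cells with a transcript and less of it per cell cannot be told apart.

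BARD1, the obligate partner of BRCA1, had the largest difference. It was at 273.1, 298.0 and 259.6 CPM in LNCaP with NC-mimic and at 26.3, 22.6 and 19.3 CPM in 22Rv1 with NC-mimic. All 22Rv1 libraries were below all LNCaP libraries by a wide margin. The log2 fold change was -3.61 ± 0.14 (SE, n = 3 per group, edgeR adjusted p = 7.2e-07), and 3.51% of all genes tested had a value at or below it.

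In the libraries with piR-4447944 mimic, BARD1 was at 277.0, 274.8 and 286.2 CPM in LNCaP and at 31.3, 31.0 and 8.55 CPM in 22Rv1. The low value belongs to the library that stood apart, and the groups did not overlap with or without it. The log2 fold change was -3.56 ± 0.46 (edgeR adjusted p = 0.000928) and -3.16 without that library. In every alternative run, BARD1 was called lower in 22Rv1 in both comparisons of the lines.

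BRCA1, the tumour suppressor that directs broken ends to recombination, went the other way. It was at 56.5, 65.3 and 38.7 CPM in LNCaP with NC-mimic and at 164.1, 134.7 and 90.3 CPM in 22Rv1 with NC-mimic. Each 22Rv1 library was above each LNCaP library, although replicate 3 was the lowest in both lines. This gave a log2 fold change of 1.27 ± 0.25 (edgeR adjusted p = 0.00279). Without 22Rv1 with NC-mimic replicate 3 it was 1.47 (edgeR adjusted p = 1.28e-05).

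BRIP1, the helicase that binds BRCA1, had a like pattern. It was at 21.7, 23.5 and 14.98 CPM in LNCaP with NC-mimic and at 58.0, 47.6 and 26.9 CPM in 22Rv1 with NC-mimic. The groups did not overlap, and replicate 3 was again the lowest in each. On the log2 scale the difference was 1.13 ± 0.29 (edgeR adjusted p = 0.0094). Leaving out 22Rv1 with NC-mimic replicate 3 gave 1.38 (edgeR adjusted p = 2.33e-05).

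RAD51D, which works in complexes with RAD51C, was at 22.3, 21.2 and 23.3 CPM in LNCaP with NC-mimic and at 40.9, 36.8 and 42.6 CPM in 22Rv1 with NC-mimic. Its replicates lay close together in both lines and did not overlap between them. Its log2 fold change was 0.84 ± 0.12 (edgeR adjusted p = 0.000485). RAD51C itself did not pass the test, with a log2 fold change of -0.09 ± 0.13 and an interval of 2 SE from -0.36 to 0.18.

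CHEK2, the kinase downstream of ATM, was at 23.8, 26.6 and 27.5 CPM in LNCaP with NC-mimic and at 34.1, 36.2 and 31.8 CPM in 22Rv1 with NC-mimic. The groups were apart, by a small margin. Its log2 fold change was 0.38 ± 0.12 (edgeR adjusted p = 0.0262). The call was lost on leaving out any 1 of LNCaP replicates 1, 2 and 3 or 22Rv1 replicates 1 and 2, with edgeR adjusted p between 0.0513 and 0.135, and with limma (adjusted p = 0.274), no low-count filter, the replicate block or 1 fit of all libraries.

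ATM, the kinase that senses the break, had a log2 fold change of -0.30 ± 0.13 (edgeR adjusted p = 0.0723) and was at 84.5, 84.1 and 78.7 CPM in LNCaP with NC-mimic against 76.6, 69.3 and 55.8 CPM in 22Rv1 with NC-mimic. Its groups did not overlap, and it passed the test without 22Rv1 with NC-mimic replicate 1 (-0.40, adjusted p = 0.0347). It did not pass on leaving out any other 1 library, and was at -0.19 without 22Rv1 with NC-mimic replicate 3 (edgeR adjusted p = 0.102). PALB2 and BRCA2 had log2 fold changes of -0.29 ± 0.17 and -0.20 ± 0.19, with intervals of 2 SE from -0.63 to 0.06 and from -0.59 to 0.18, and neither passed. In CPM, the libraries of the lines did not overlap for 6 of 9 members with NC-mimic, beside 65.8% of 18720 genes.

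**Figure D1:**
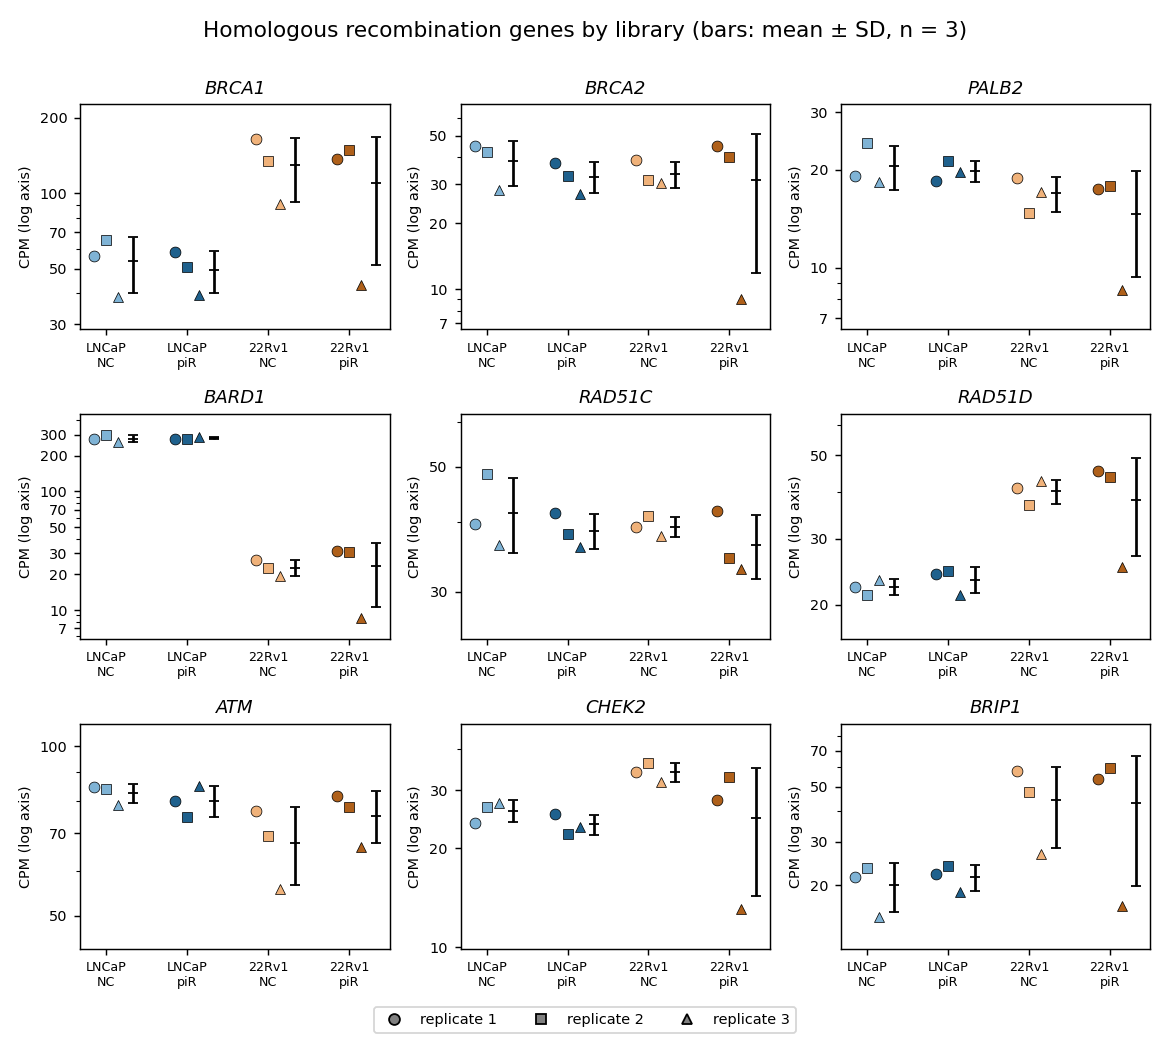
CPM of the 9 members (log axis, scaled per gene) in each library of LNCaP and 22Rv1 cells with NC-mimic (NC) or piR-4447944 mimic (piR), with the mean and SD of 3 libraries beside the points. BARD1 lies between 259.6 and 298.0 CPM in all LNCaP libraries and at 31.3 CPM or below in 22Rv1, and the triangle of replicate 3 lies lowest in the last group of each panel.

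With piR-4447944 mimic in both lines, 2 of 9 members passed the test between the lines, 1 higher and 1 lower in 22Rv1, beside 28.2% and 24.2% of 17283 genes. These were BARD1 and RAD51D. RAD51D was at 24.2, 24.5 and 21.2 CPM in LNCaP and at 45.4, 43.6 and 25.3 CPM in 22Rv1, with a log2 fold change of 0.71 ± 0.23 (edgeR adjusted p = 0.0368). The groups did not overlap, but the lowest 22Rv1 library was close to LNCaP. The call was lost on leaving out any 1 of LNCaP replicates 1, 2 and 3 or 22Rv1 replicates 1 and 2, with edgeR adjusted p between 0.0945 and 0.127, and with limma (adjusted p = 0.0799).

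BRCA1 and BRIP1 did not pass there, at log2 fold changes of 1.16 ± 0.44 (edgeR adjusted p = 0.0614) and 1.01 ± 0.44 (adjusted p = 0.0931), although DESeq2 called both (adjusted p = 0.0138 and 0.0421). With no low-count filter, the replicate block or 1 fit of all libraries, edgeR called BRCA1 too (adjusted p from 0.0248 to 0.0417). BRCA1 was at 58.2, 51.0 and 39.4 CPM in LNCaP and at 137.6, 149.1 and 42.9 CPM in 22Rv1. BRIP1 was at 22.2, 23.9 and 18.7 CPM in LNCaP and at 53.8, 59.3 and 16.5 CPM in 22Rv1. Replicates 1 and 2 of 22Rv1 were above all LNCaP libraries for both genes, and replicate 3 was not.

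Without 22Rv1 with piR-4447944 mimic replicate 3, 6 of 9 members passed the test in that comparison in place of 2, 5 higher and 1 lower beside 35.4% and 34% of 17988 genes. They were BARD1 (-3.16), BRCA1 (1.54), BRIP1 (1.39), RAD51D (0.94), CHEK2 (0.37, adjusted p = 0.0185) and BRCA2 (0.39, adjusted p = 0.0183). BRCA2 was thus called higher in 22Rv1 only on leaving out this library, and its log2 fold change was -0.05 ± 0.52 with it. With NC-mimic, in contrast, BRCA2 passed as lower in 22Rv1 without replicate 3 of both lines (-0.32, adjusted p = 0.0468). Of the 9 members, 3 did not overlap between the lines with piR-4447944 mimic, BARD1, RAD51D and PALB2, beside 62.9% of 18720 genes. Over all 6 libraries of each line, only BARD1 and RAD51D of the members did not overlap, and 49.3% of all genes did not.

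**Figure D2:**
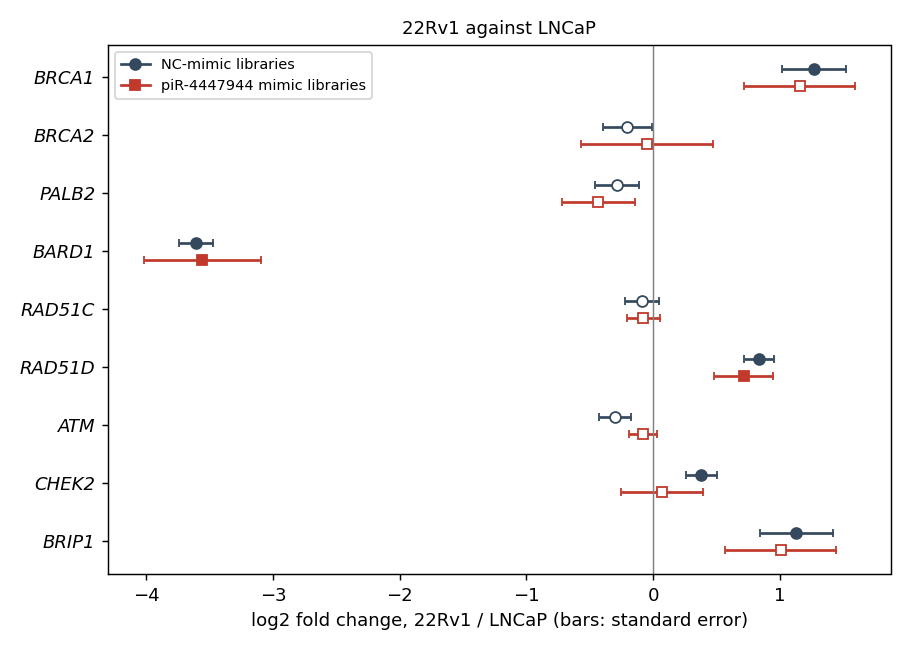
The log2 fold change of each member in 22Rv1 over LNCaP cells, with its standard error, in libraries with NC-mimic (circles) and with piR-4447944 mimic (squares), filled where the edgeR adjusted p was under 0.05. BARD1 sits at -3.61 and -3.56, RAD51D at 0.84 and 0.71, and the bars of the squares are wider for 7 of the 9 genes.

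Since BRCA1 and BARD1 work as 1 complex, the ratio of their TPM was taken in each library. BRCA1 to BARD1 was 0.205, 0.185 and 0.172 in LNCaP with NC-mimic and 0.190, 0.151 and 0.112 with piR-4447944 mimic. It was 6.58, 6.77 and 4.26 in 22Rv1 with NC-mimic and 4.28, 4.73 and 5.03 with piR-4447944 mimic. BARD1 RNA exceeded BRCA1 RNA in all 6 LNCaP libraries, and BRCA1 RNA exceeded BARD1 RNA in all 6 22Rv1 libraries, also in the library that stood apart. The geometric mean was 0.166 in LNCaP and 5.18 in 22Rv1, a 31.2-fold difference (exact two-sided permutation test, p = 0.00216). This p is the smallest that 6 against 6 allows, and was 0.00325 after adjustment over 3 ratios. BARD1 alone already kept all libraries of the lines apart, so the ratio restates that difference and its p is not separate support. Of single genes, 49.3% of 18720 did not overlap between the lines, and no such share was taken for ratios.

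The ratio of the paralogs RAD51C to RAD51D was 7.35 in LNCaP and 4.21 in 22Rv1 as geometric means over 6 libraries, 1.75-fold lower in 22Rv1. The LNCaP libraries lay between 6.04 and 9.60 and the 22Rv1 libraries between 3.22 and 5.34, without overlap (exact permutation p = 0.00216, adjusted 0.00325). RAD51D alone did not overlap between the lines either, so the p of this ratio is not separate support. Without replicate 3 of each group, RAD51C to RAD51D was 1.63-fold lower, and BRCA1 to BARD1 30.2-fold higher, in 22Rv1. BRCA2 to its binding partner PALB2 was 0.548 in LNCaP and 0.778 in 22Rv1 with overlapping libraries (exact permutation p = 0.0887), and without replicate 3 of each group the libraries were apart, at 0.599 and 1.02 (exact permutation p = 0.0286, the smallest that 4 against 4 allows). In expected counts, which carry no length estimate, the same ratio was 1.74 and 1.90 over all libraries (exact permutation p = 0.556) and 1.90 and 2.25 without replicate 3, with overlapping libraries (exact permutation p = 0.2). Between NC-mimic and piR-4447944 mimic, all 3 ratios overlapped in both lines.

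Over the 6 libraries of each line, the mean transcript length, a readout apart from the level, overlapped between the lines for all 9 members, beside 7.32% of 18720 genes that did not overlap. The lowest p was that of BARD1, at 3845 ± 104.2 bases in LNCaP and 4259 ± 545.7 bases in 22Rv1 (SD, n = 6 per line, exact permutation p = 0.0952). With NC-mimic alone, BARD1 lengths were apart, from 3828 to 3939 bases in LNCaP and from 4444 to 5067 bases in 22Rv1, and with piR-4447944 mimic those of BRCA1, from 4350 to 4527 and from 3479 to 4264 bases (exact permutation p = 0.1 each, the smallest that 3 against 3 allows). This is 1 of 9 members in each, beside 20.6% and 20.2% of all genes. Between NC-mimic and the mimic, the lengths of RAD51C in LNCaP and of BARD1 and ATM in 22Rv1 did not overlap, beside 7.52% and 7.08% of all genes (exact permutation p = 0.1 each). The high TPM of BRCA2 in 22Rv1 with piR-4447944 mimic replicate 1, 10.1, went with its shortest length, 5998 bases, while its CPM of 45.0 was close to the highest LNCaP value of 44.7.

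The second comparison, which the study made to find target genes of the piRNA, was the effect of piR-4447944 mimic within each line. No member passed the test in LNCaP cells, in 22Rv1 cells, as a mean over both lines or in the difference between the lines, by either rule in the main edgeR fits. By an adjusted p under 0.05, edgeR called 0 of 9 members and 0.0% of all genes in each of these 4 comparisons. By an unadjusted p under 0.05 with an absolute log2 fold change over 0.2, the thresholds of the study, 0 of 9 members passed, beside 2.22% of 16244 genes in LNCaP, 1.48% of 16898 genes in 22Rv1, 1.54% of 18720 genes for the mean and 3.26% of 18720 genes for the difference between the lines. The study applied these thresholds to DESeq2 fold changes that had been shrunken, and its list held genes that passed in both lines. Here they were applied to edgeR fold changes without shrinkage in each comparison, so these counts are not those of the study. At an unadjusted p under 0.05 alone, 433, 250, 340 and 610 genes passed in these comparisons and again 0 members, and DESeq2 and limma called 0 members. The libraries with and without the mimic overlapped for all 9 members in both lines, beside 7.79% of genes that did not overlap in LNCaP and 8.6% in 22Rv1.

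In LNCaP cells the values were tight. The log2 fold changes ran from -0.25 ± 0.16 for BRCA2 to 0.10 ± 0.16 for BRIP1, 6 of 9 below 0, with a median of -0.05 beside -0.00272 over all genes. BARD1, the best-counted member in this line, was at 0.01 ± 0.07 with an interval of 2 SE from -0.12 to 0.14. BRCA1 was at -0.12 ± 0.17, with an interval from -0.46 to 0.22, and ATM at -0.05 ± 0.07, with an interval from -0.20 to 0.10. With the shrunken fold changes of DESeq2, BRCA2 was at -0.064 (DESeq2 Wald test, unadjusted p = 0.134) and did not pass the thresholds of the study. By the thresholds of the study, BRCA2 passed as lower in some alternatives, at -0.42 without LNCaP with NC-mimic replicate 3 (unadjusted p = 0.00317, edgeR adjusted p = 0.482), where BRCA1 passed too (-0.30, unadjusted p = 0.0347, edgeR adjusted p = 0.631), at -0.31 without replicate 3 of both groups, at -0.25 with no low-count filter and at -0.23 with the replicate block (edgeR adjusted p from 0.694 to 1.00).

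In 22Rv1 cells the standard errors were larger for each member. The log2 fold changes ran from -0.47 ± 0.33 for CHEK2 to 0.16 ± 0.16 for ATM, 7 of 9 below 0, with a median of -0.09 beside -0.00515 over all genes. The interval of BRCA1 ran from -1.14 to 0.66 and that of BRCA2 from -1.13 to 0.94, so a change of 1.5-fold in either direction lies within both. Without replicate 3 of the mimic group, BRCA1 was at 0.15, BRCA2 at 0.35, PALB2 at 0.06, RAD51D at 0.16 and BRIP1 at 0.36 in place of -0.24, -0.09, -0.21, -0.07 and -0.03, and CHEK2 at -0.16 in place of -0.47. BARD1 was at 0.45 in place of 0.05 and passed the thresholds of the study there (unadjusted p = 0.0333, edgeR adjusted p = 0.979). The first 5 genes thus changed sign on leaving out 1 library, and BRCA2 and BRIP1 did so without NC-mimic replicate 1 too (0.02 and 0.21). Without replicate 3 of both groups, BRCA1 was at -0.05, and BARD1 was at 0.35 and passed the same thresholds (unadjusted p = 0.0294, edgeR adjusted p = 0.976). With libraries paired by replicate number, BRCA1 was at -0.39, BRCA2 at -0.34, CHEK2 at -0.56 and ATM at 0.16 (edgeR adjusted p from 0.892 to 0.908).

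**Figure D3:**
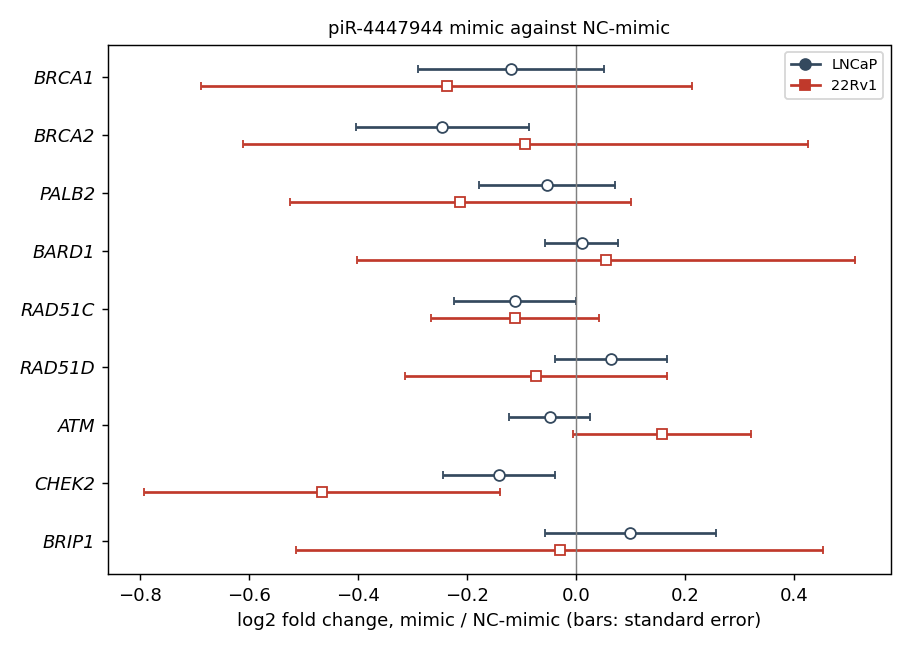
The log2 fold change of each member with piR-4447944 mimic over NC-mimic, with its standard error, in LNCaP (circles) and 22Rv1 (squares). All markers are open because no edgeR adjusted p was under 0.05, and the bars are wider in 22Rv1, up to 0.52 for BRCA2 against 0.16 in LNCaP.

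The difference of the mimic effect between the lines did not pass the test for any member. The largest was that of CHEK2, at -0.33 ± 0.36, and the next that of ATM, at 0.21 ± 0.17. Without 22Rv1 with piR-4447944 mimic replicate 3, that of CHEK2 was -0.022, and BRCA2 (0.58, unadjusted p = 0.0492) and BARD1 (0.43, unadjusted p = 0.0146) passed the thresholds of the study (edgeR adjusted p = 0.922 each). The mean effect over both lines ran from -0.30 ± 0.18 for CHEK2 to 0.06 ± 0.09 for ATM, and that of CHEK2 was -0.15 without the same library.

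In 22Rv1 with piR-4447944 mimic replicate 3, all 9 members were lower than in replicates 1 and 2 of the group. BRCA2 was 4.52-fold lower, BARD1 3.496-fold, BRIP1 3.35-fold, BRCA1 3.31-fold, CHEK2 2.28-fold and PALB2 2.00-fold lower than their mean. RAD51D was 1.75-fold lower, while ATM and RAD51C differed least, 1.20-fold and 1.15-fold. The members thus ranged from BRCA2 at the far end to RAD51C, which hardly differed.

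Genes of the cell cycle moved in the same library. All 20 S phase genes were lower there, with a median log2 difference of -1.61, and all 20 G2/M genes, with a median of -1.62, beside -1.19 for the members and 0.01 for all genes. In 22Rv1 with NC-mimic replicate 3, 19 of 20 S phase genes were lower than in replicates 1 and 2, with a median of -0.41, and BRIP1 was at -0.95 and BRCA1 at -0.72. In LNCaP, replicate 3 had the lowest S phase level of each group too, with medians of -0.27 and -0.41, and BRCA1 was at -0.64 and -0.46. The part of the cell cycle genes in the differences between libraries was not tested.

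S phase genes also differed between the lines. All 20 were higher in 22Rv1 with NC-mimic, with a median log2 fold change of 1.15, close to the values of BRCA1 and BRIP1 and opposite to that of BARD1. Of 20 G2/M genes, 16 were higher and 1 lower in this comparison, beside 30.9% and 27.5% of all genes. In the libraries with the mimic, 7 of 20 S phase genes were called higher, with a median of 0.92, beside 28.2% of all genes. Without 22Rv1 replicate 3 all 20 were, with a median of 1.28, beside 35.4% of all genes. Their part in the differences of the members between the lines was not tested.

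Of 65 other genes of homologous recombination and the Fanconi pathway, which repairs crosslinks and shares BRCA1, BRCA2, PALB2, RAD51C and BRIP1 with it, 29 were higher and 6 lower in 22Rv1 with NC-mimic, beside 30.9% and 27.5% of all genes, with a median log2 fold change of 0.33 beside 0.01 over all genes. Without 22Rv1 with NC-mimic replicate 3, 32 were higher and 7 lower. Among the largest were FANCL, the ubiquitin ligase of the Fanconi core, at 2.14 ± 0.20, the helicase BLM at 1.70 ± 0.21, the nuclease EXO1 at 1.58 ± 0.19 and the break-site adaptor MDC1 at 1.56 ± 0.18 (edgeR adjusted p up to 0.000271). The kinase ATR and CDK12, a kinase that sustains the transcription of long repair genes, were among the 6 that were lower, at -0.60 ± 0.13 and -0.84 ± 0.11; they were named after their values were seen. In the libraries with the mimic, 13 of the 65 rose above LNCaP in 22Rv1 and 4 fell below it, beside 28.2% and 24.2% of all genes, with FANCL (2.14), BLM (1.47), RMI2 (1.35) and RAD51AP1 (1.26) among the largest. Without 22Rv1 replicate 3 of these libraries, 37 were higher and 5 lower, beside 35.4% and 34% of all genes.

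None of the 65 passed the adjusted p for the mimic in either line, for the mean or for the difference, with or without 22Rv1 replicate 3 of the mimic group. In LNCaP, 3 of the 65 had an unadjusted p under 0.05, beside 433 of all 16244 genes tested. They were SEM1, which binds BRCA2, at 0.31 ± 0.08, BRCC3 at -0.27 ± 0.09 and the helicase RTEL1 at -0.36 ± 0.14 (edgeR adjusted p = 0.999 each). In 22Rv1, among the smallest unadjusted p values were those of SFR1 at -0.37 ± 0.25 and FANCC at -0.32 ± 0.23, and none was under 0.05. For the mean over both lines they were those of FANCE (-0.33 ± 0.19), RMI2 (-0.22 ± 0.13) and TP53BP1 (0.10 ± 0.06), and for the difference SEM1 (-0.47 ± 0.16), FANCC (-0.45 ± 0.26) and SFR1 (-0.57 ± 0.34).

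For each member, the gene with the most similar course over the 12 libraries was found, as the smallest mean absolute difference of log2 CPM centred on its own mean, among 18719 genes. BRCA1 was nearest to KIF15, a mitotic kinesin (0.088), and BRIP1 to GEN1, a nuclease that resolves recombination intermediates (0.096). BRCA1 and BRIP1 were also the closest pair of members, at 0.119, where BRCA1 ranked second for BRIP1. BARD1 was nearest to NCAM2 (0.211) and stood far from every other member, the nearest being PALB2 at 1.64. The nearest genes of the others were DDIAS for BRCA2 (0.138), JKAMP for PALB2 (0.085), CAPZA1 for RAD51C (0.047), SNRPA for RAD51D (0.078), EIF4EBP2 for ATM (0.045) and the mitochondrially encoded MT-ND5 for CHEK2 (0.090). The 12 libraries come from 2 lines and include the one that stood apart, so the points of this likeness are not independent.

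On the hg38 assembly with GENCODE v44, BARD1 lies on chromosome 2 from 214725646 to 214809683 on the minus strand. Among the protein-coding genes within 1000000 bases of it that were examined after its values were seen, ABCA12 and FN1 were lower in 22Rv1 with NC-mimic too, with log2 fold changes of -3.97 ± 0.37 and -3.78 ± 0.64, and FN1 varied widely in 22Rv1 (41.3 ± 42.3 CPM). ATIC was at -0.80 ± 0.09. SPAG16, on the other side of BARD1, was at 17.8 ± 3.51 CPM in 22Rv1 and at 0.0203 ± 0.0352 CPM in LNCaP. The neighbourhood thus held genes of both directions.

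BRCA1 lies on chromosome 17 from 43044295 to 43170245, RAD51D from 35092221 to 35121522 and BRIP1 from 61679139 to 61863559, all on the minus strand, and RAD51C from 58692573 to 58735611 on the plus strand. BRCA2 lies on chromosome 13 from 32315086 to 32400268 (plus), PALB2 on chromosome 16 from 23603160 to 23641321 (minus), ATM on chromosome 11 from 108223044 to 108369102 (plus) and CHEK2 on chromosome 22 from 28687743 to 28742422 (minus). Of the members, 4 share chromosome 17.

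Since the strand used in counting is not given in the sources used here, genes that overlap a member can share reads with it. The antisense gene NBR2, which starts beside BRCA1, held between 75 and 337 expected counts and was lower in 22Rv1 with NC-mimic at a log2 fold change of -1.23 ± 0.25 (edgeR adjusted p = 0.00344), opposite to BRCA1. A long noncoding RNA on the strand of BRCA1, ENSG00000267002, held between 476.1 and 907 counts over all libraries, beside 636 to 3602 for BRCA1. HSCB, antisense to CHEK2, held between 103 and 227.5 counts, and C11orf65, antisense to ATM, between 6 and 52. ENSG00000267618, a protein-coding gene on the strand of RAD51D that overlaps it, held between 0 and 14.37 counts, beside 358 to 896.6 for RAD51D. The pseudogene BRCA1P1 and the copies of CHEK2 were listed at 0, and how reads were divided between such copies and CHEK2 was not tested.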

How the data were processed

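RNA of 12 libraries was measured, 3 in each of 4 groups taken from the labels. For alignment the authors used STAR 2.7.1a on hg38, and RSEM 1.3.0 for quantification; their notes also name R 4.1.1 and DESeq2 1.34.0. The expected counts deposited by the authors are estimated reads per gene without normalization. The TPM deposited by the authors are scaled by length and hold no depth, and the common TPM table differed from the single ones by 0 at most. The deposited transcript length of a gene is a mean over its isoforms weighted by abundance. Trimming, strand and read length are not given in the sources used here.

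After rounding, expected counts were fitted by the quasi-likelihood method of edgeR 4.0.16 in R 4.3.3 (TMM, filterByExpr), adjusted by Benjamini-Hochberg over all genes of a fit, after the fits had been tested on simulated data. CPM used TMM library sizes, with a pseudocount of 0.5 on the log scale. Standard errors came from the estimate and the test statistic, and intervals span 2 of them. Single values were compared by exact two-sided permutation tests (scipy 1.17.1), which cannot go below 0.1 for 3 against 3. DESeq2 1.42.0 and limma 3.58.1 on log2(TPM + 1) were alternatives, beside other filters, size factors, the replicate block and libraries left out. Depth was 12161091 to 22179601 counts.

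In 22Rv1, libraries with the same replicate number deviated together in mimic and control (r = 0.198, 0.167 and 0.355 for numbers 1 to 3). Only number 3 stood clear of unlike numbers, since NC-mimic replicate 1 against mimic replicate 2 gave 0.191. A pairing by number in 22Rv1 thus rests on the values alone. It was used only in the replicate block, an alternative, and the main fits held no pairing. In LNCaP (0.021, 0.0050 and 0.189) and between the lines the numbers were not taken to pair the libraries. Number 3 was highest there too, at 0.189 in LNCaP against 0.139 at most for unlike numbers. Between the lines it was at 0.104 against 0.103 with NC-mimic and at 0.100 against 0.042 with the mimic. A shared effect of number 3 was not tested.

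The members, gene lists and tests were chosen with earlier results of these data known. The counts of lists without replicate 3 of 22Rv1 and the overlap of transcript lengths were added after the data were seen. Named were all members, the leading other repair genes of each comparison (the 5 largest among those called, or the 3 of smallest p), the nearest gene of each member and overlapping genes that hold counts. RAD51L3-RFFL was not analysed here under that symbol. Some genes that this rule would name are not reported here.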

Additional observations from a re-analysis of the deposited data

How the results depend on the processing

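The 22Rv1 libraries, which include both replicate 3 libraries that stood apart, had the wider spread (a coefficient of biological variation of 0.343 against 0.0964 in LNCaP). Between 22Rv1 replicates 1 and 2 the chi-square per gene was 8.81 and 7.55, beside 3.56 to 16.5 in LNCaP. The spread limits what could be detected for the members in 22Rv1, and several calls rested on 1 library. By the adjusted p, no member was called for the mimic in any alternative. By the thresholds of the study, counted in each alternative after the data were seen, the 0 members became, in LNCaP, 1 (BRCA2) with no low-count filter, with the replicate block or without replicate 3 and 0 to 2 with 1 library left out, in 22Rv1, 1 (BARD1) without replicate 3 and 0 to 1 with 1 library left out, for the mean, 1 with the block (CHEK2, -0.34), and for the difference between the lines, 2 (BRCA2 and BARD1) without replicate 3 and 0 to 2 with 1 library left out. The cause of the changes below was not tested. In the comparison of the lines with NC-mimic, 4 to 6 members were called in the alternatives. With piR-4447944 mimic, the count of 2 became 4 with DESeq2, 1 with limma on log2(TPM + 1), 5 without replicate 3 of each line and 1 to 6 with 1 library left out. BRCA1 was also called there with no low-count filter and in 1 fit of all libraries.

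Of all genes, the mimic calls of 0 in LNCaP became 361 by the thresholds of the study, 46 with no low-count filter, 2 with DESeq2, 1 with limma, 4 with the replicate block, 5 without replicate 3 of each group and 0 to 2 with 1 library left out. In 22Rv1 the 0 became 250 by those thresholds, 4 with DESeq2, 2 with limma and 4 without replicate 3. The mean over both lines gave 289 by those thresholds, and the difference between the lines 610, 3 with DESeq2, 2 with limma, 1 without replicate 3 and 0 to 1 with 1 library left out. By the adjusted p, the replicate block changed no call of a member for the mimic. Between the lines, where the numbers were not taken to pair the libraries, it gave 4 members called with NC-mimic, without CHEK2 (0.37), and 3 with the mimic, with BRCA1 added (0.98). The log2 ratio of BRCA2 to PALB2 between the lines, 0.51, was 0.77 and passed without replicate 3 in TPM, while in expected counts it was 0.13 and did not pass with all libraries, and was 0.25 without replicate 3.

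Uncalled log2 fold changes near 0 changed sign in some alternatives. With 1 library left out, those for the mimic in LNCaP spanned -0.031 to 0.069 (BARD1), -0.30 to 0.051 (BRCA1), -0.12 to 0.081 (PALB2), -0.20 to 0.020 (RAD51C) and -0.065 to 0.23 (BRIP1), and in 22Rv1 -0.46 to 0.35 (BRCA2), -0.21 to 0.45 (BARD1), -0.38 to 0.064 (PALB2), -0.23 to 0.16 (RAD51D), -0.33 to 0.36 (BRIP1) and -0.52 to 0.15 (BRCA1). Between the lines they spanned -0.20 to 0.027 (RAD51C, NC-mimic) and, with the mimic, -0.40 to 0.39 (BRCA2), -0.20 to 0.37 (CHEK2) and -0.14 to 0.0001 (ATM). Without replicate 3 of each group, the mimic values were -0.049 for BARD1 in LNCaP and 0.28 for BRCA2, 0.073 for PALB2, 0.20 for RAD51D and 0.11 for BRIP1 in 22Rv1, and the line values with the mimic were 0.28 for BRCA2 and 0.052 for ATM. With limma they were 0.14 for BRCA2 and -0.052 for ATM in 22Rv1, and 0.17 for BRCA2 and -0.15 for CHEK2 between the lines. The block gave -0.13 for BARD1 in 22Rv1 and -0.032 for CHEK2 between the lines.

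The mean mimic effect over both lines spanned, with 1 library left out, -0.060 to 0.105 (RAD51D), -0.0068 to 0.089 (ATM), -0.096 to 0.22 (BRIP1), -0.081 to 0.19 (BARD1), -0.30 to 0.0030 (BRCA1) and -0.33 to 0.020 (BRCA2). It was 0.0007 for RAD51D with at least 10 counts in every library and 0.18 without replicate 3, -0.073 for ATM and -0.0075 for BRIP1 with limma, and -0.013 for BRIP1 and -0.031 for BARD1 with the block. The difference of the mimic effect between the lines spanned -0.13 to 0.086 (RAD51C), -0.39 to 0.26 (BRCA1), -0.20 to 0.58 (BRCA2), -0.21 to 0.43 (BARD1), -0.32 to 0.11 (PALB2), -0.28 to 0.085 (RAD51D) and -0.42 to 0.25 (BRIP1), and that of CHEK2, which kept its sign, -0.58 to -0.022. For RAD51C it was 0.0073 with DESeq2 size factors, 0.0062 with no low-count filter, 0.011 with at least 10 counts, 0.0070 with DESeq2, 0.042 with limma and 0.083 without replicate 3. Without replicate 3 it was 0.10 for BRCA1, 0.19 for PALB2, 0.035 for RAD51D and 0.074 for BRIP1, with limma 0.19 for BRCA1, and with the block -0.095 for BRCA2 and -0.10 for BARD1.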
